A study of Mus musculus with 8 samples.

Results

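The semaphorins, plexins and neuropilins were described in mouse telencephalon carrying Dlx1/2 mutations. Members were chosen by gene symbol: every probe set whose single annotated symbol names a semaphorin (Sema followed by its class number and letter), a plexin (Plxna to Plxnd with a number), Nrp1 or Nrp2. This gave 31 genes of 18193 named on the array, namely 20 semaphorins, 9 plexins and 2 neuropilins, on 78 probe sets. Each gene is represented by its probe set with the highest mean log2(signal + 16) over the 8 arrays, and its other probe sets serve as a check. All 31 symbols were found in the RefSeq gene table. After the lowest 30% of probe sets by mean were left out, 29 members were tested among 13627 genes. The other 2, Sema3b and Sema3d, are given as signals.

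The labels describe 4 groups of 2 arrays: basal ganglia (BG) with the genotype -/-, BG with +/-, cortex (Ctx) with -/- and Ctx with +/-. Dlx1 and Dlx2 are homeobox transcription factor genes of the ventral forebrain, and every group carries at least 1 mutant copy by its label. No wild-type arrays are used here. The labels do not state the age of the animals, the strain, the design of the mutant allele or whether animals were pooled. A source label that names blood and adrenal medulla stands beside the tissue labels, and markers of both were examined. Separate animals for the arrays of a group are not stated either, and the spread that the p-values rest on may therefore be technical.

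Semaphorins are secreted or membrane-bound cues that steer growing axons and migrating neurons, most often by repulsion. Plexins are their main signalling receptors, and the neuropilins are co-receptors that let most secreted class 3 semaphorins act through A plexins. In the embryonic mouse telencephalon, interneurons that leave the ventral forebrain for the cortex carry neuropilins, and class 3 semaphorins of the developing striatum repel them.

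The sequences around the annotated starts of Sema6d and Sema3e are shown for the following reasons. Sema6d was the only member that passed the test between genotypes on its representing probe set. Sema3e lay among the members with the largest differences between regions. The windows run from 250 bases before the start to 50 bases after it (RefSeq, GRCm38.p6). Sema6d has a pair of annotated starts on the plus strand of chromosome 2, at chr2:124089719-124090018 and chr2:124653331-124653630, and capitals mark the 50 bases from each start. In the Sema3e window, on the plus strand at chr5:14025026-14025325, capitals mark the letters TAATT on either strand, a core shared by the binding sites of DLX and many other homeodomain proteins.
Sema6d, first start: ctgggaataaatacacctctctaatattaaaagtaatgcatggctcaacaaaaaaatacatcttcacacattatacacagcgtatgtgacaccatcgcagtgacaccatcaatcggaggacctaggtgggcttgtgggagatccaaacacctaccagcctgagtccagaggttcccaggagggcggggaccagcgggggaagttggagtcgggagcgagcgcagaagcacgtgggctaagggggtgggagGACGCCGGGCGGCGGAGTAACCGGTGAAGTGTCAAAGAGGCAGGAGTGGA
Sema6d, second start: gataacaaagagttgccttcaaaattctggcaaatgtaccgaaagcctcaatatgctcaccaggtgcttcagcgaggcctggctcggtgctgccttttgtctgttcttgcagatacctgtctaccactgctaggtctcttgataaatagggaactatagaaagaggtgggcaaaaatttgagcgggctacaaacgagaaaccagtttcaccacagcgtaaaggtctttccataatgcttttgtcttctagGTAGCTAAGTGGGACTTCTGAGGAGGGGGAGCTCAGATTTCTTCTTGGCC
Sema3e: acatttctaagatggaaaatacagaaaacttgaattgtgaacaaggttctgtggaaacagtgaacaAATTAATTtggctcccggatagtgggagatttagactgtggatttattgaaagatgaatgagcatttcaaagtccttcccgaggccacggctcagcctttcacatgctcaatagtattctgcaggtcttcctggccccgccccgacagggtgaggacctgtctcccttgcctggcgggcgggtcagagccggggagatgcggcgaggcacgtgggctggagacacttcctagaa
Windows were found for 26 of the 31 members. The longer core TAATTA, which reads the same on both strands, was in the windows of 0 of these 26 genes and of 6.12% of all 27025 genes with a window. The shorter TAATT, which lies within it and was searched after the longer one had no match, was in the windows of 4 members (15.4%: Sema3d, Sema3e, Sema4a and Sema4d), against 29.9% of all genes. The median GC content of the members' windows was 63.7%, against 52.7% over all windows. These matches describe letters in the windows only.

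The deposited signals had equal trimmed means on all 8 arrays, and the array medians lay between 38.0 and 51.6. Dlx1 averaged 9.57 ± 8.34 signal units in BG -/- and 1234 ± 3.34 in BG +/- (SD, n = 2 each). Dlx2 averaged 8.62 ± 0.0812 in BG -/- and 323 ± 50.3 in BG +/- (SD, n = 2 each). Both were also lower in Ctx -/- than in Ctx +/-. Xist, expressed from the inactive X chromosome, was at 2339.9 and 2519 in BG -/-, against 34.2 and 42.4 in BG +/-, and at 2457 and 2363 in Ctx -/-, against 62.6 and 67.5 in Ctx +/-, so sex and genotype cannot be told apart. The members on chromosome X are Plxna3 and Plxnb3. Choroid plexus markers set Ctx +/- apart: the summed signal of the 7 measured was 42.6 to 102 in Ctx -/-, against 12138 to 13999 in Ctx +/-, most of it from Ttr. In BG it was 230 to 264 in -/-, against 220 to 221 in +/-. Markers of cortical glutamatergic neurons, 12 of 13 measured, summed to 4382 to 4437 in BG -/-, against 12586 to 13030 in Ctx -/-, and to 4864 to 4922 in BG +/-, against 12274 to 12665 in Ctx +/-. Those of GABAergic neurons, 6 of 7 measured, summed to 2236 to 2316 in BG -/-, against 36.8 to 60.9 in Ctx -/-, and to 3920 to 4322 in BG +/-, against 755 to 772 in Ctx +/-. The regions thus matched their labels by the sums of these markers. Singly, 9 of the 12 glutamatergic markers passed as lower in BG in -/- and none as higher, with 11 lower and 1 higher in +/-. Of 6 adrenal medulla markers measured, none passed between genotypes in either region and 1 was higher in BG than in Ctx in each genotype, Chgb in -/- and Pnmt in +/-.

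The first comparison asked which members differ between -/- and +/- in the basal ganglia. Sema6d, a membrane semaphorin of class 6, rose in BG -/- and was the only member that passed on its representing probe set. None fell. Thus 1 of 29 members was called, against 7.82% of all genes tested (4.76% higher and 3.05% lower in BG -/-, limma with Benjamini-Hochberg over 31526 probe sets, adjusted p under 0.05). Of the 64 member probe sets tested, 4 passed, all higher, against 9.74% of all probe sets. At an unadjusted p under 0.05 there were 9 members, against 26.9% of all genes. The median log2 change was 0.019 over the 29 members and -0.077 over all genes, with 15 members above 0 and 14 below. Of the 6 GABAergic markers tested, Slc32a1, Dlx5 and Dlx6 fell in BG -/-. Of the 12 markers listed for cortical glutamatergic neurons, Slc17a6 rose and Bcl11b and Fezf2 fell, and of the 6 for choroid plexus Otx2 rose. Which cells carry the cortical markers in BG was not examined. Of 5 oligodendrocyte lineage markers none passed, and the sum of the 6 measured was 1284 to 1365 in BG -/-, against 894 to 976 in BG +/-. The part of such cells in the members' values was not tested.

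Sema6d had signals of 757 and 786 in BG -/-, against 446 and 408 in BG +/-. Both -/- arrays lay above both +/- arrays, and the log2 change was 0.83 ± 0.14 (SE, limma adjusted p = 0.0171), a fold of 1.78. Its other probe sets rose or did not pass. Probe set 1446536_at was at 98.0 and 103 in BG -/-, against 41.3 and 45.7 in BG +/- (log2 change 0.97 ± 0.12, limma adjusted p = 0.00920). Probe set 1459318_at was at 73.6 and 80.8 in BG -/-, against 21.3 and 15.4 in BG +/- (log2 change 1.44 ± 0.13, limma adjusted p = 0.00479). The last of them, 1448060_at, was at 62.1 and 116 in BG -/-, against 57.7 and 57.4 in BG +/-, and did not pass (log2 change 0.46 ± 0.26, limma adjusted p = 0.299). In all, 3 of 4 Sema6d probe sets therefore passed, and on 1448060_at the BG -/- arrays were far apart from each other. Which part of the transcript each probe set detects is not given in the files. Leaving out any 1 of the 4 BG arrays kept the direction, with log2 changes of 0.77 to 0.89, but ended the call (limma adjusted p = 0.0713 to 0.103).

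Sema6d lies on chromosome 2, as do Dlx1 and Dlx2. Of 1094 genes tested on that chromosome, 5.21% rose in BG -/-, against 4.72% of the other 12533, and 3.84% fell, against 2.98%. In Ctx, 9 of the 1094 passed in either direction (0.823%), Dlx1 and Dlx2 among them, against 19 of the others (0.152%). These shares were not tested against each other.

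**Figure D1:**
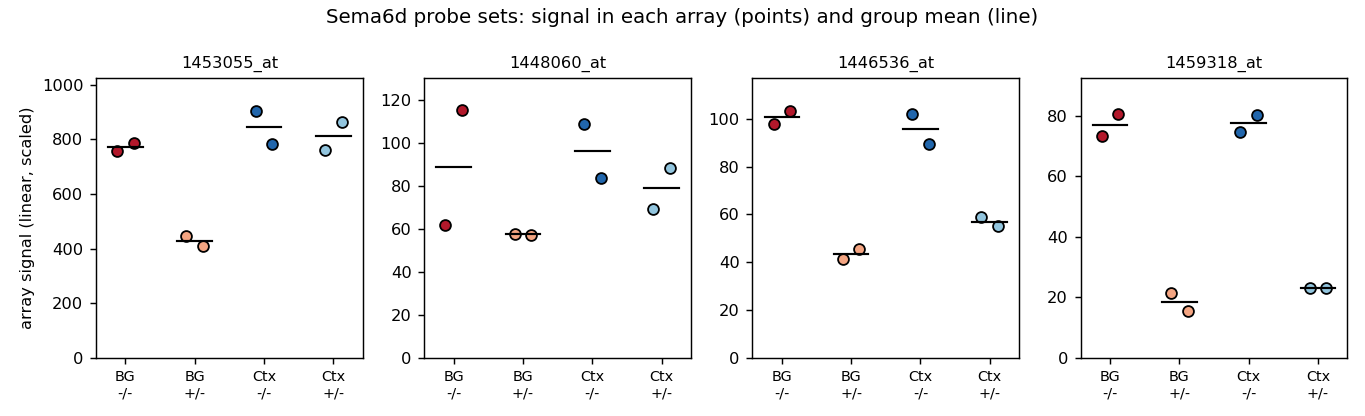
Signal (linear, scaled array units) of the 4 Sema6d probe sets in each array, with BG -/-, BG +/-, Ctx -/- and Ctx +/- along the horizontal axis of each panel; points are arrays (n = 2 per group) and lines are group means. On 1459318_at the -/- arrays, at 73.6 and 80.8 in BG and 74.8 and 80.4 in Ctx, lie above all +/- arrays, whereas on 1453055_at the genotypes are apart in BG and overlap in Ctx.

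The neuropilins are the co-receptors for which most is known in migrating interneurons. Nrp1, the binding partner of Sema3a and of the growth factor VEGF, was at 594 and 640.0 in BG -/-, against 457 and 425 in BG +/-. The -/- arrays were the higher ones, but the log2 change of 0.47 ± 0.15 did not pass (limma adjusted p = 0.100, 95% interval 0.11 to 0.83). Of its 4 probe sets, 1457198_at passed, at 298 and 291 in BG -/-, against 149.7 and 188 in BG +/- (log2 change 0.76 ± 0.15, limma adjusted p = 0.0297). The other two had log2 changes of 0.48 (1418084_at) and 0.25 (1448944_at), with limma adjusted p of 0.0505 and 0.448.

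Nrp2, the co-receptor of Sema3f, was at 550.0 and 587 in BG -/-, against 529.6 and 516 in BG +/-. The groups did not overlap, and the log2 change was 0.12 ± 0.13 (limma adjusted p = 0.599, 95% interval -0.19 to 0.42). Its other probe sets had log2 changes of 0.47, 0.25 and 0.59. All 4 estimates for Nrp2 were above 0 in BG and none passed. The intervals of both neuropilins leave room for differences that 2 arrays per group did not resolve.

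**Figure D2:**
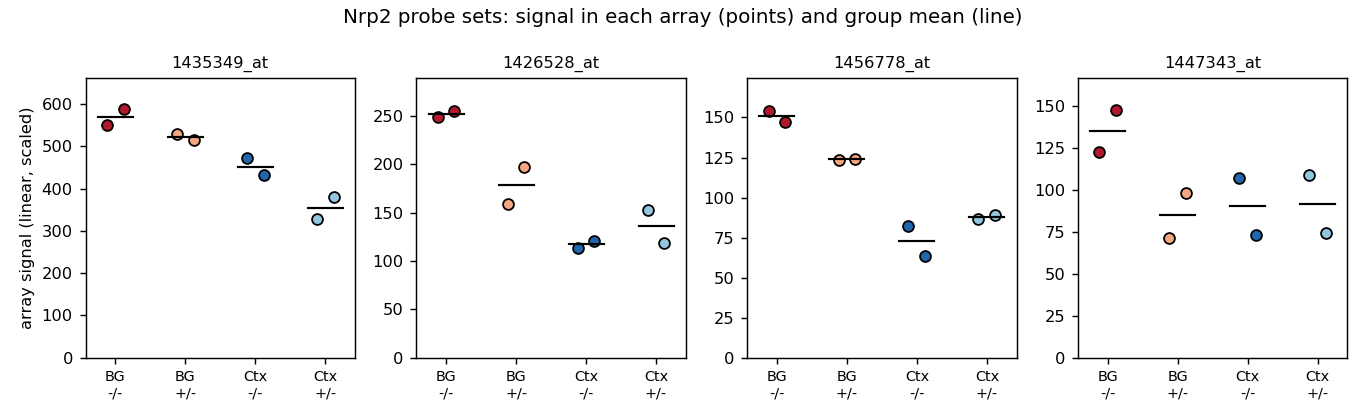
Signal (linear, scaled array units) of the 4 Nrp2 probe sets in each array, with BG -/-, BG +/-, Ctx -/- and Ctx +/- along the horizontal axis; points are arrays (n = 2 per group) and lines are group means. On the representing probe set 1435349_at the BG -/- arrays are at 550.0 and 587 and the BG +/- arrays at 529.6 and 516.

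The remaining 26 members did not pass in BG. Their smallest adjusted p was that of Sema4c, a membrane semaphorin that binds Plxnb2, at 207 and 224 in BG -/-, against 291 and 300.1 in BG +/- (log2 change -0.43 ± 0.13, limma adjusted p = 0.0853). Class 3 semaphorins, the secreted ligands, had a median log2 change of 0.34 over the 5 tested, from -0.31 for Sema3f to 0.67 for Sema3e. That median is the value of Sema3g, which lay just above the limit for testing. Sema3g was at 20.1 and 27.1 in BG -/-, against 12.1 and 18.5 in BG +/- (limma adjusted p = 0.270). Sema3e, which unlike other class 3 members can bind Plxnd1 without a neuropilin, was at 93.6 and 129 in BG -/-, against 56.7 and 69.7 in BG +/- (limma adjusted p = 0.159). Its receptor Plxnd1 was at 67.6 and 88.1 in BG -/-, against 127 and 133 in BG +/- (log2 change -0.65 ± 0.24, limma adjusted p = 0.133). The arrays of the genotypes did not overlap for either gene, and neither passed. The X-linked Plxna3 was at 246 and 291 in BG -/-, against 287 and 241 in BG +/-, and the X-linked Plxnb3 at 57.7 and 80.4 in BG -/-, against 85.4 and 72.2 in BG +/-. Both pairs of groups overlapped. In all, the arrays of the genotypes did not overlap for 19 of 29 members in BG, against 60.8% of all genes.

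In the cortex, no member passed on its representing probe set. The count was 0 of 29, against 0.205% of all genes tested (limma with Benjamini-Hochberg), and at an unadjusted p under 0.05 it was 6 members, against 8.60% of all genes. The median log2 change was -0.12 over the members and -0.031 over all genes. The smallest adjusted p among members was 0.272, for Sema5b, a class 5 semaphorin with thrombospondin repeats. Sema5b was at 78.6 and 77.5 in Ctx -/-, against 109.9 and 120.0 in Ctx +/- (log2 change -0.48 ± 0.11). Sema4b, a membrane semaphorin of class 4, was at 154 and 150.4 in Ctx -/-, against 93.1 and 94.7 in Ctx +/- (log2 change 0.62 ± 0.15, limma adjusted p = 0.285). The arrays of the genotypes did not overlap for either gene. They did not overlap for 14 of 29 members in all, against 39.3% of all genes. Of the markers, 2 of 6 tested for choroid plexus (Ttr and Kcne2) and 4 of 6 for GABAergic neurons fell in Ctx -/-, and their part in the members' values was not tested.

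On another probe set, Sema6d passed in the cortex as well. Probe set 1459318_at was at 74.8 and 80.4 in Ctx -/-, against 23.2 and 23.1 in Ctx +/- (log2 change 1.26 ± 0.13, limma adjusted p = 0.0249). This was 1 of 64 member probe sets tested, against 0.225% of all probe sets. The brighter 1453055_at, which represents the gene, was at 906 and 784 in Ctx -/-, against 761 and 864 in Ctx +/- (log2 change 0.055 ± 0.14, limma adjusted p = 0.931). The groups overlap on 1453055_at and are far apart on 1459318_at. Probe set 1446536_at lay between these, at 102 and 89.6 in Ctx -/-, against 58.8 and 55.0 in Ctx +/- (log2 change 0.61 ± 0.12, limma adjusted p = 0.194). Both neuropilins were higher in both Ctx -/- arrays than in both Ctx +/- arrays without passing, with log2 changes of 0.33 ± 0.15 for Nrp1 (95% interval -0.032 to 0.69) and 0.34 ± 0.13 for Nrp2 (95% interval 0.038 to 0.65). For Nrp2 the other probe sets were at -0.18, -0.23 and -0.018, so its probe sets differ in sign in Ctx.

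The difference between the genotype effects of the regions was tested as an interaction. No member passed: 0 of 29, against 0.338% of all genes (limma with Benjamini-Hochberg), with 2 members at an unadjusted p under 0.05, against 15.3% of all genes. None of the 64 member probe sets passed, against 0.574% of all probe sets. Subtracting the Ctx change from the BG change left a log2 difference of 0.78 ± 0.19 for Sema6d (limma adjusted p = 0.121, 95% interval 0.32 to 1.23) on its representing probe set and 0.19 ± 0.19 on 1459318_at. With an offset of 64 or with an intensity trend in the spread, the difference for Sema6d passed (limma adjusted p = 0.0480 and 0.0101). The difference was 0.14 ± 0.21 for Nrp1 and -0.23 ± 0.18 for Nrp2.

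**Figure D3:**
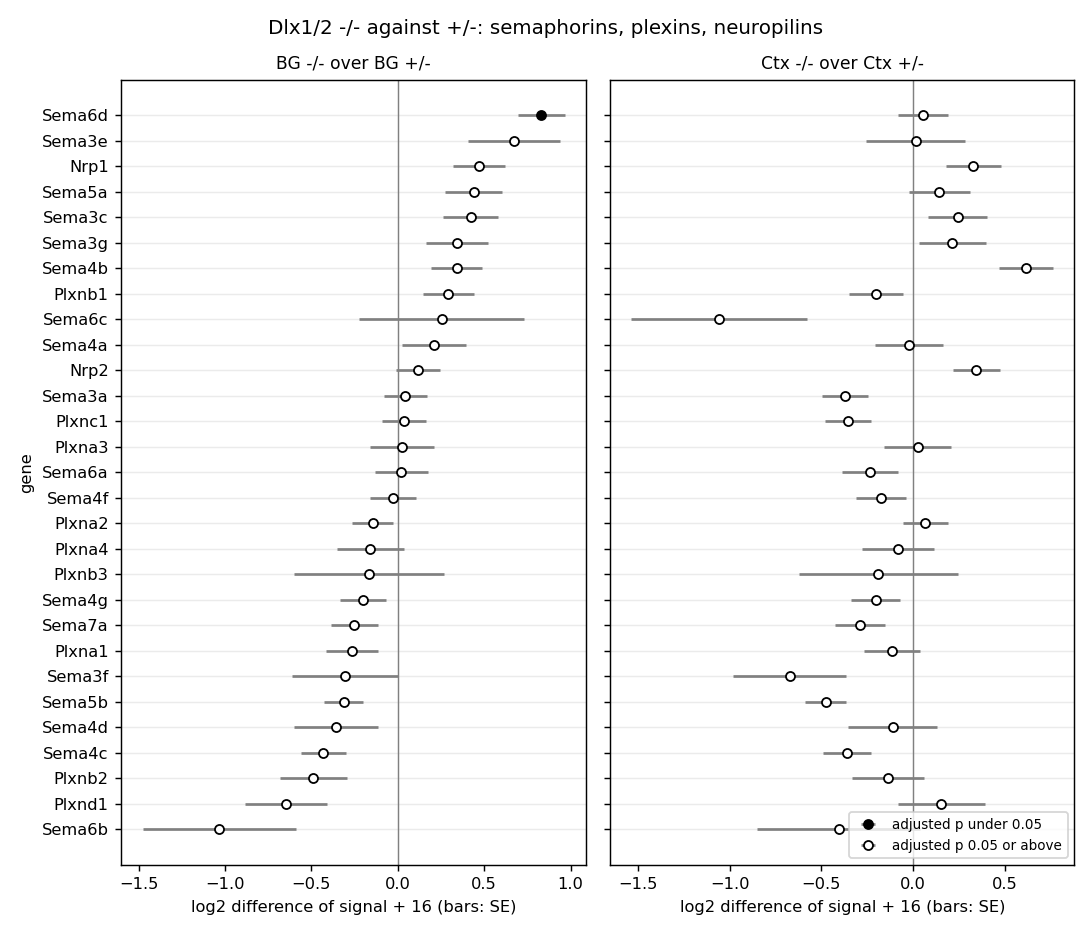
Log2 difference of signal + 16 for the 29 members tested, BG -/- over BG +/- at the left and Ctx -/- over Ctx +/- at the right; points are estimates, bars are SE, and filled points passed adjusted p = 0.05 (limma). Sema6d at 0.83 in BG is the only filled point, and semaphorins and plexins scatter on both sides of 0 in both regions.

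The last comparisons set basal ganglia against cortex in each genotype. Here many members differed. In the -/- arrays 5 members were higher in BG and 7 lower, 12 of 29, against 18.7% of all genes tested (11.4% higher and 7.25% lower, limma with Benjamini-Hochberg). In the +/- arrays 5 were higher in BG and 8 lower, 13 of 29, against 24.8% of all genes (14.0% higher and 10.7% lower). Of the 64 member probe sets, 14 were higher and 16 lower in -/-, against 17.2% of all probe sets called, and 13 were higher and 16 lower in +/-, against 23.8%. At an unadjusted p under 0.05 there were 14 members in -/-, against 36.6% of all genes, and 17 in +/-, against 40.1%. The arrays of the regions did not overlap for 8 members higher and 12 lower in BG -/-, against 71.1% of all genes, and for 10 higher and 14 lower in BG +/-, against 65.0%. The comparisons use different arrays for their group means but share the estimate of the spread over all 8 arrays. Calls in both genotypes are therefore not independent of each other. Of the members called, 10 were called in both genotypes, 83.3% of the -/- list and 76.9% of the +/- list, and each had the same direction in both. Of all genes, 1528 were called in both, 60.1% of the -/- list and 45.3% of the +/- list. Higher in BG in both genotypes were Plxnc1, Sema3e, Sema4a and Sema5b. Higher in Ctx in both were Nrp1, Plxna2, Plxnb2, Sema3c, Sema5a and Sema7a. In bulk tissue, fewer cells of a type and less RNA per cell cannot be told apart. The markers of glutamatergic and GABAergic neurons given above move with the regions, and their part in these differences was not tested.

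The comparisons between regions depended on scaling. The median log2 difference of all probe sets was 0.076 between BG -/- and Ctx -/- as deposited and -0.21 with each array centred on its median. Between BG +/- and Ctx +/- it was 0.056 as deposited and -0.065 with centring. Of the probe sets called, 61.8% were higher in BG in -/- as deposited and 26.5% with centring, and 46.4% and 31.6% in +/-. None of the 10 members called in both genotypes changed direction with it, but Sema5b lost its call in both, Sema6a in -/- and Nrp2 in +/-. Leaving out an array of the groups compared lowered the count of members in -/- to 5 and 6 without BG -/- replicate 2 and 3 and to 7 and 8 without Ctx -/- replicate 2 and 3. The calls of Sema4d, Plxnb2 and Sema5b were lost without any 1 of these 4 arrays and that of Sema7a without any but Ctx -/- replicate 3. Sema6a lost its call without BG -/- replicate 2 or 3 or Ctx -/- replicate 3, Sema3c without BG -/- or Ctx -/- replicate 2, Sema5a without BG -/- replicate 2 or Ctx -/- replicate 3, and Sema3e without BG -/- replicate 3. In +/- the count was 9 and 8 without BG +/- replicate 2 and 3 and 10 without any other array. There, Sema4g and Sema5b lost their calls without any 1 of the 8 arrays, Nrp2 without BG +/- replicate 2 or 3 or Ctx +/- replicate 2, and Sema3e without BG +/- replicate 2 or 3 or Ctx +/- replicate 3. Plxnb2 kept its call in +/- only without BG +/- replicate 2 or Ctx +/- replicate 2. Nrp1, Plxna2, Plxnc1 and Sema4a were called in both genotypes whichever of the 8 arrays was left out.

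Among the secreted class 3 ligands, Sema3c and Sema3e went opposite ways between regions. Sema3c, which binds both neuropilins and can attract cortical axons, was at 263 and 316 in BG -/-, against 656 and 563 in Ctx -/-, and at 231 and 193 in BG +/-, against 486 and 538 in Ctx +/-. It was lower in every BG array than in every Ctx array, with log2 differences of -1.04 ± 0.16 in -/- and -1.22 ± 0.16 in +/- (limma adjusted p = 0.00804 and 0.00357), and both its probe sets passed in both genotypes. Sema3e was at 93.6 and 129 in BG -/-, against 28.6 and 15.7 in Ctx -/-, and at 56.7 and 69.7 in BG +/-, against 29.8 and 14.3 in Ctx +/-. All BG arrays lay above all Ctx arrays, with log2 differences of 1.74 ± 0.27 in -/- and 1.08 ± 0.27 in +/- (limma adjusted p = 0.00809 and 0.0298). The other 3 class 3 members tested did not pass in either genotype. Sema3a, the repellent that acts through Nrp1, was at 201 and 177 in BG -/-, against 164 and 146 in Ctx -/-, and at 179 and 187 in BG +/-, against 207 and 202 in Ctx +/-. On this probe set the order of Sema3a was turned between the genotypes, with 95% intervals of -0.037 to 0.56 in -/- and -0.45 to 0.15 in +/-. Its other probe sets did not share this turn. Their log2 differences in -/- and +/- were -0.061 and 0.022 on 1449865_at and -0.078 and -0.32 on 1420417_at. Sema3f, the ligand of Nrp2, had log2 differences of 0.39 ± 0.31 in -/- and 0.028 ± 0.31 in +/-. The probe sets of Sema3f differed in sign. In -/- and +/- the others were at -0.75 and -0.22 on 1425840_a_at and at 0.95 and -0.38 on 1420508_at, and none passed.

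The class 3 members below the limit for testing were dim. Sema3b, a secreted semaphorin, was at 35.0 and 17.8 in BG -/-, against 1.08 and 2.81 in Ctx -/-, and at 22.0 and 34.9 in BG +/-, against 3.29 and 3.04 in Ctx +/-. All BG arrays were above all Ctx arrays on this probe set. With no filter on low values, Sema3b passed in both genotypes. Its other probe sets, dimmer still, did not give the same picture. On 1416644_a_at the BG arrays were above the Ctx arrays within each genotype, whereas on 1448415_a_at the regions overlapped in both genotypes. Sema3d was at 21.5 and 15.2 in BG -/-, against 12.9 and 13.7 in Ctx -/-, and at 14.4 and 9.0 in BG +/-, against 8.29 and 16.1 in Ctx +/-, with groups that overlap in +/- but not in -/-.

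Of the membrane semaphorins, Sema4a had the largest log2 difference of all members in both genotypes on the representing probe sets. Other probe sets of Nrp1 had larger differences, down to -2.12 in -/- (1448944_at) and -2.60 in +/- (1457198_at). So did another probe set of Sema3e in -/- (1.99 on 1419717_at) and of Plxnc1 in +/- (1.75 on 1450906_at). Sema4a was at 229 and 249 in BG -/-, against 59.6 and 57.6 in Ctx -/-, and at 199.9 and 208 in BG +/-, against 75.2 and 46.8 in Ctx +/-. Every BG array was above every Ctx array, with log2 differences of 1.77 ± 0.19 in -/- and 1.54 ± 0.19 in +/- (limma adjusted p = 0.00200 and 0.00263), and its second probe set passed too. Sema4d, a ligand of Plxnb1, was at 79.1 and 117 in BG -/-, against 168 and 227 in Ctx -/-, and passed there (log2 difference -0.91 ± 0.24, limma adjusted p = 0.0461). In +/- it was at 106 and 155 in BG, against 215 and 209 in Ctx, and did not pass (log2 difference -0.66 ± 0.24, limma adjusted p = 0.0919). Sema4g was lower in BG +/- at 206 and 189, against 259.6 and 296 in Ctx +/- (log2 difference -0.46 ± 0.13, limma adjusted p = 0.0497). Its log2 difference of -0.45 ± 0.13 in -/- did not pass (limma adjusted p = 0.0618). For both genes the 2 genotypes gave estimates of the same sign, and the difference between genotypes did not pass.

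The class 5 semaphorins were apart from each other. Sema5a was at 136 and 165 in BG -/-, against 328 and 358 in Ctx -/-, and at 120.4 and 94.1 in BG +/-, against 335 and 285 in Ctx +/-. It was lower in all BG arrays (log2 differences -1.11 ± 0.17 in -/- and -1.41 ± 0.17 in +/-, limma adjusted p = 0.00749 and 0.00258), on both probe sets tested. Sema5b was higher in BG, at 126 and 127 in BG -/-, against 78.6 and 77.5 in Ctx -/-, and at 161 and 161 in BG +/-, against 109.9 and 120.0 in Ctx +/-. Its differences were smaller, at 0.60 ± 0.11 in -/- and 0.44 ± 0.11 in +/- on the log2 scale (limma adjusted p = 0.0151 and 0.0329), and its other probe set, 1435963_at, did not pass and had the opposite sign in +/- (log2 differences 0.15 ± 0.15 in -/- and -0.14 ± 0.15 in +/-).

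In class 6, whose members signal through A plexins, Sema6a was higher in BG -/- at 97.8 and 109, against 63.3 and 47.6 in Ctx -/- (log2 difference 0.75 ± 0.15, limma adjusted p = 0.0206). In +/- it was at 96.9 and 107 in BG, against 62.9 and 72.5 in Ctx, which did not pass (log2 difference 0.50 ± 0.15, limma adjusted p = 0.0584). Sema6d was lower in BG +/- than in Ctx +/-, at 446 and 408 in BG +/-, against 761 and 864 in Ctx +/- (log2 difference -0.90 ± 0.14, limma adjusted p = 0.00564). In -/- its difference was -0.13 ± 0.14 and did not pass (limma adjusted p = 0.549). These values share their BG arrays with the rise of Sema6d in BG -/- given above, and the other 3 probe sets of the gene did not pass between regions. Sema6b and Sema6c varied between arrays of a group: Sema6c was at 99.3 and 61.8 in BG -/-, against 68.2 and 16.1 in Ctx -/-, and at 89.9 and 43.6 in BG +/-, against 87.4 and 96.9 in Ctx +/-, and neither passed.

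Sema7a, the semaphorin with a lipid anchor, and Plxnc1, its plexin receptor, differed in opposite directions. Sema7a was at 180.3 and 173 in BG -/-, against 341 and 298 in Ctx -/-, and at 233 and 196 in BG +/-, against 402 and 385 in Ctx +/- (log2 differences -0.80 ± 0.14 and -0.84 ± 0.14, limma adjusted p = 0.0114 and 0.00732). Plxnc1 was at 587 and 599 in BG -/-, against 193 and 172 in Ctx -/-, and at 602 and 556 in BG +/-, against 251 and 225 in Ctx +/- (log2 differences 1.62 ± 0.13 and 1.23 ± 0.13, limma adjusted p = 0.000706 and 0.00157). The ligand was lower and the receptor higher in all 4 BG arrays. All 5 Plxnc1 probe sets tested passed with this direction in both genotypes, while Sema7a had a single probe set tested.

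**Figure D4:**
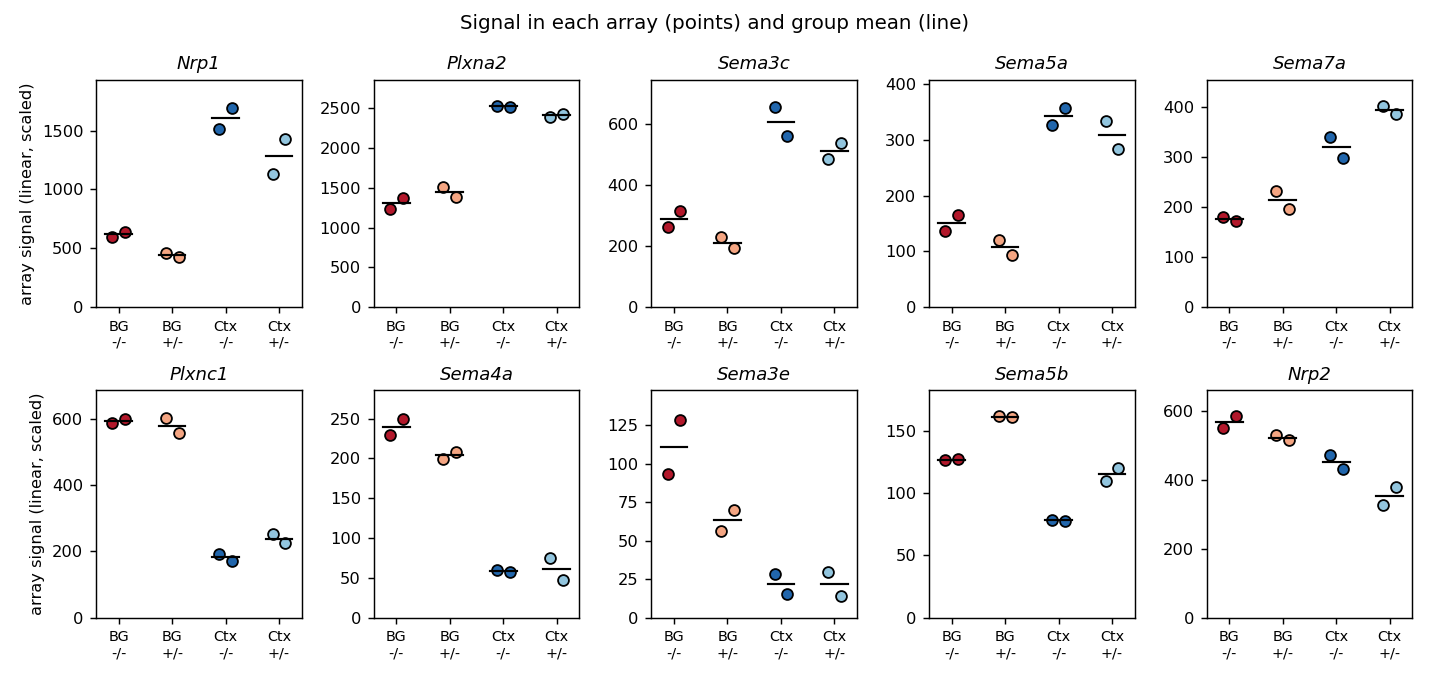
Signal (linear, scaled array units) of 10 members on their representing probe sets, with BG -/-, BG +/-, Ctx -/- and Ctx +/- along the horizontal axis; points are arrays (n = 2 per group), lines are group means, and each vertical axis starts at 0. The upper row holds members that are lower in all BG arrays, such as Nrp1, and the lower row members that are higher in all BG arrays, such as Plxnc1.

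Among the other plexins, Plxna2 and Plxnb2 were lower in BG. Plxna2, a receptor of Sema6a and partner of neuropilins, was at 1236 and 1377 in BG -/-, against 2536 and 2521 in Ctx -/-, and at 1509 and 1383 in BG +/-, against 2394 and 2433 in Ctx +/-. The arrays of the regions were far apart (log2 differences -0.95 ± 0.12 in -/- and -0.73 ± 0.12 in +/-, limma adjusted p = 0.00399 and 0.00761), and all 4 of its probe sets were lower in BG, of which 4 passed in -/- and 3 in +/-. Plxnb2, a receptor of class 4 semaphorins in neural progenitors, was at 223 and 218 in BG -/-, against 480.2 and 493 in Ctx -/-, and at 379.8 and 262 in BG +/-, against 478 and 600.1 in Ctx +/- (log2 differences -1.09 ± 0.20 and -0.73 ± 0.20, limma adjusted p = 0.0140 and 0.0379). The remaining A plexins, Plxna1, Plxna3 and Plxna4, did not pass on their representing probe sets, with log2 differences from -0.40 to -0.020 in -/- and from -0.40 to 0.13 in +/-. Plxna3 was at 246 and 291 in BG -/-, against 357 and 362 in Ctx -/-, and at 287 and 241 in BG +/-, against 302 and 412 in Ctx +/-. The Sema4d receptor Plxnb1 did not pass either, at 242 and 228 in BG -/-, against 236 and 203 in Ctx -/-, and at 203 and 176 in BG +/-, against 234 and 276 in Ctx +/-. Plxnd1, the Sema3e receptor, was at 67.6 and 88.1 in BG -/-, against 95.6 and 73.2 in Ctx -/-, and at 127 and 133 in BG +/-, against 56.1 and 95.4 in Ctx +/-. Its groups overlap in -/- and do not in +/-, and it did not pass (limma adjusted p = 0.802 and 0.0733).

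The neuropilins differed from each other between regions. Nrp1 was at 594 and 640.0 in BG -/-, against 1518 and 1694 in Ctx -/-, and at 457 and 425 in BG +/-, against 1135 and 1429 in Ctx +/-. Every BG array was below every Ctx array (log2 differences -1.36 ± 0.15 in -/- and -1.50 ± 0.15 in +/-, limma adjusted p = 0.00254 and 0.00150), and all 4 probe sets passed in both genotypes, with log2 differences as low as -2.60 on 1457198_at in +/-. Nrp2 was at 550.0 and 587 in BG -/-, against 472 and 432 in Ctx -/-, and at 529.6 and 516 in BG +/-, against 328 and 379 in Ctx +/-. The BG arrays were the higher ones, and the difference passed in +/- but not in -/- (log2 differences 0.32 ± 0.13 in -/- and 0.55 ± 0.13 in +/-, limma adjusted p = 0.129 and 0.0248). On 2 other probe sets the side of the threshold was turned: 1426528_at and 1456778_at passed in -/-, with log2 differences of 1.01 ± 0.16 and 0.92 ± 0.14. In +/- they were higher in BG too, at 0.36 ± 0.16 and 0.43 ± 0.14, and did not pass. The last, 1447343_at, passed in neither genotype and differed in sign, at 0.52 ± 0.24 in -/- and -0.089 ± 0.24 in +/-.

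**Figure D5:**
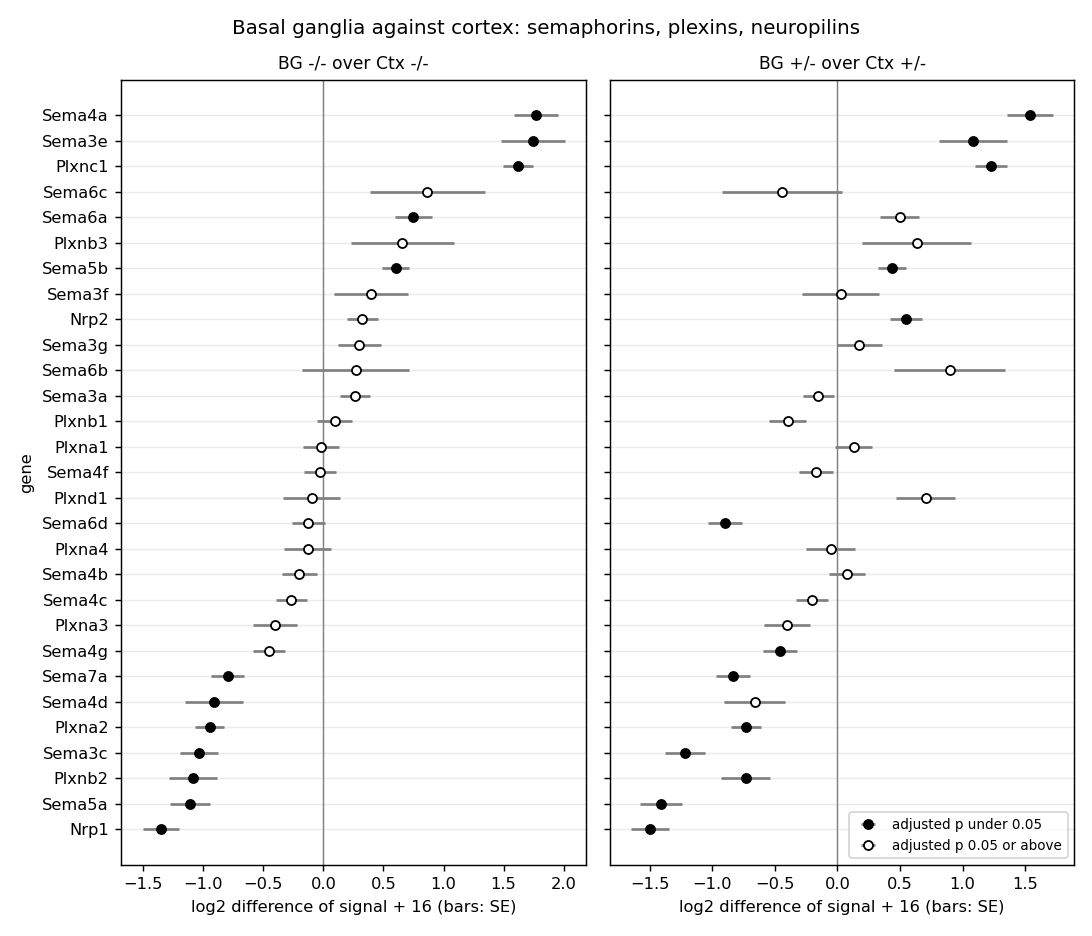
Log2 difference of signal + 16 for the 29 members tested, BG -/- over Ctx -/- at the left and BG +/- over Ctx +/- at the right; points are estimates, bars are SE, and filled points passed adjusted p = 0.05 (limma). Genes run down in the order of their -/- difference, from Sema4a at 1.77 to Nrp1 at -1.36, and the 10 members filled in both panels lie on the same side of 0 in both.

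Genes that act with the members were counted from 2 lists drawn from textbook knowledge. Of 28 tested mediators inside the cell, such as the collapsin response proteins, which carry semaphorin signals to microtubules, and the MICAL enzymes, which act on actin, none passed between genotypes in BG or in Ctx (limma with Benjamini-Hochberg, 0 against 7.82% and 0.205% of all genes). The list's median log2 change was -0.19 in BG, against -0.077 over all genes. Between regions 3 of the 28 were higher in BG and 1 lower in each genotype, against 18.7% of all genes called in -/- and 24.8% in +/-. The share of so short a list was not tested against that of all genes. Rnd3, which lowers the contraction of the cytoskeleton, was at 1979 and 2016 in BG -/-, against 583 and 679 in Ctx -/- (log2 difference 1.64 ± 0.12). Its relative Rnd2, which takes part in the migration of cortical neurons, was at 301 and 402 in BG -/-, against 1043 and 1023 in Ctx -/- (log2 difference -1.53 ± 0.15). Rnd3 was higher and Rnd2 lower in BG in +/- too, at 1.41 ± 0.12 and -1.29 ± 0.15. Limk1, the kinase that inactivates cofilin, was higher in BG by 0.53 ± 0.13 in -/- and 0.50 ± 0.13 in +/-. Rnd1 passed in -/- at 0.77 ± 0.21 and Cdk5r1, the activator of the kinase Cdk5, in +/- at 0.41 ± 0.11.

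Of 14 tested membrane partners, 2 rose in BG -/- and none fell, against 4.76% and 3.05% of all genes. Chl1, an adhesion molecule of the L1 family that binds Nrp1, was at 2779.7 and 2709 in BG -/-, against 1324 and 1347 in BG +/- (log2 change 1.03 ± 0.11, limma adjusted p = 0.00640). Nrcam, of the same family and a partner of Nrp2, was at 667 and 655 in BG -/-, against 397 and 452 in BG +/- (log2 change 0.62 ± 0.12, limma adjusted p = 0.0274). Both -/- arrays lay above both +/- arrays for each gene. None of the 14 passed in Ctx or for the difference between regions, where Chl1 had 1.01 ± 0.15 (limma adjusted p = 0.0542). Between regions 3 were higher and 4 lower in BG -/-, against 18.7% of all genes called, and 2 higher and 4 lower in BG +/-, against 24.8%. Cntn2, an adhesion molecule of cortical axons, had the largest of these differences, at 96.6 and 136 in BG -/-, against 1122 and 1081 in Ctx -/- (log2 difference -3.09 ± 0.17). L1cam, the partner of Nrp1 in Sema3a signalling, was at 756 and 761 in BG -/-, against 1281 and 1257 in Ctx -/- (log2 difference -0.73 ± 0.16, and -0.76 ± 0.16 in +/-). Met, a receptor kinase that pairs with B plexins, was higher in BG, with log2 differences of 1.79 ± 0.25 in -/- and 0.96 ± 0.25 in +/-. The remaining calls were those of Erbb2 (log2 differences -1.0 and -0.96), Tyrobp, an adaptor of Plxna1 signalling in immune cells (0.81 and 1.31) and, in -/- alone, Nrcam at 0.55 and Ptk7 at -0.72, with Chl1 at -1.09 in +/- alone. Chl1 and Nrcam share their BG arrays with the rises in BG -/-.

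Several members are also expressed outside neurons, and markers of other cells were therefore read beside them. Of 9 endothelial markers tested, none passed in any comparison, and the summed signal of the 10 measured was 640 to 693 in BG -/-, against 736 to 796 in BG +/-, and 488 to 527 in Ctx -/-, against 630.2 to 639.8 in Ctx +/-. Of 9 microglia and leukocyte markers tested, none passed between genotypes, 1 was higher in BG -/- than in Ctx -/- and 4 in BG +/- than in Ctx +/-. Their sum was 1017 to 1124 in BG -/-, against 624 to 739 in Ctx -/-, and 1168 to 1300.1 in BG +/-, against 554 to 609 in Ctx +/-. Of 6 meningeal markers tested, none passed between genotypes, and 3 were higher and 1 lower in BG than in Ctx in each genotype, with sums of 330.4 to 357 in BG -/-, against 156 to 198 in Ctx -/-, and 377 to 419 in BG +/-, against 248 to 269.5 in Ctx +/-. Of 4 red blood cell markers tested, 1 fell in BG -/-, Hbb-y, and 3 were higher in BG than in Ctx in each genotype. The sum of the 5 measured was 3118 to 3265 in BG -/-, against 5951 to 6256 in BG +/-, and 1427 to 1654 in Ctx -/-, against 2026 to 2243 in Ctx +/-. Of 5 oligodendrocyte lineage markers tested, Olig1, Olig2 and Pdgfra were higher in BG in both genotypes, with Pdgfra at 232 and 243 in BG -/-, against 47.4 and 46.1 in Ctx -/-. Of 6 choroid plexus markers tested, 2 were higher in BG -/- than in Ctx -/- and 3 lower in BG +/- than in Ctx +/-. The part of these cells in the members' differences was not tested.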

How the data were processed

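Total RNA of 4 groups of 2 samples was measured on Affymetrix mouse arrays. The deposited table holds 1 linear intensity per probe set and array, whose trimmed means were equal on all 8 arrays as the values show. The software behind these intensity values is not given in the sources used here. Symbols came from the platform annotation, and probe sets with several symbols named no gene.

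After 64 control probe sets were left out, log2(signal + 16) was taken, the lowest 30% of probe sets by mean were removed and 31526 were fitted with limma 3.58.1 in R 4.3.3 (lmFit and eBayes, 4 group means, 4 residual and 2.76 prior degrees of freedom). P-values were adjusted by Benjamini-Hochberg over all of these, at 0.05. Fold changes on this scale understate those of dim genes. Simulated data with independent normal noise were used to check that the steps return, on average, the changes put in. The calls were not checked against a limit there.

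The members and lists were chosen with earlier results of these data known. By rule, array values are given for members past the threshold in any comparison, for both neuropilins and for the 3 brightest members. Other members with values, such as Sema3a, Sema4b, Sema4c, Sema6c, Plxna3 and Plxnd1, were added after their values were seen. Alternatives covered the offset, the filter, the scaling, a replicate block, the arrays fitted, an intensity trend, other probe sets and each array left out. Replicates carry the numbers 2 and 3 in every group, but their deviations did not go together (correlations between groups of -0.026 to 0.022), so they were not treated as pairs.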

Additional observations from a re-analysis of the deposited data

How the results depend on the processing

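Over the named members, 681 values were recomputed under the alternatives: 565 kept their direction and their side of the threshold, 104 kept their direction and lost the call, 6 gained it and 6 changed sign. All 6 were values that had not passed: the log2 change of Sema6d in Ctx (-0.0476 and -0.0359 without replicate 2 of Ctx -/- and of Ctx +/-, with up to 0.1569 without another array), that of Nrp2 in Ctx with the mean of all probe sets (-0.0214), and the difference between regions for Nrp1 (-0.0203 with centred arrays, and -0.0217 to 0.3067 with 1 array left out) and for Nrp2 (0.3795 with the mean of all probe sets). In BG -/- against BG +/-, 1 member passed. This count was 3 with an offset of 64 (Nrp1 and Sema4c added), 2 with the lowest 50% left out (Sema4c), 5 with an intensity trend (Nrp1, Plxnb2, Sema3c and Sema4c), 2 on any probe set, 0 with the replicate block within each region and 0 to 1 with 1 array left out. Over all probe sets, 3070 passed there, against 4969 with an offset of 64, 1761 without a filter, 4786 with the lowest 50% left out, 2001 centred, 2002 with the replicate block over all groups, 324 with it within each region, 1024 from the groups compared alone, 5889 with the trend and 113 to 3415 with 1 array left out. In Ctx -/- against Ctx +/-, 71 probe sets passed, against 41 and 146 with offsets of 1 and 64, 112 with the lowest 50% left out, 36 and 22 with the replicate blocks, 24 from the groups compared alone, 212 with the trend and 19 to 39 with 1 array left out. No member passed there, and 1 did on any probe set. The difference between regions had 181 probe sets, against 3 and 907 with offsets of 1 and 64, 10 without a filter, 1033 with the lowest 50% left out, 53 centred, 4 and 3 with the blocks, 1816 with the trend and 3 to 4 with 1 array left out. Of those called, 90.1% were higher as deposited and 67.9% centred. It had no member, and 1 (Sema6d) with an offset of 64 or the trend. In BG -/- against Ctx -/-, the replicate block within each region left 5 of 12 members and 1820 of 5438 probe sets, and leaving out 1 array gave 5 to 12 members and 1896 to 6592 probe sets. In BG +/- against Ctx +/-, that block left 6 of 13 members and 2520 of 7518 probe sets, the groups compared alone 8 and 3466, and leaving out 1 array 8 to 10 and 3898 to 6948. An array left out leaves a group of 1, which is assumed to vary like the others. Blocks and left-out arrays also lower the degrees of freedom, and the causes of the other shifts were not tested. Between 24.6% and 34.1% of signals on an array were below the offset of 16, so dim probe sets are poorly resolved.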

Other observations

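Some members passed between regions on a probe set other than the one that represents them. Plxna3, a partner of Nrp2, was lower in BG -/- on 1420995_at, at 126 and 125 in BG -/-, against 295 and 252 in Ctx -/- (log2 difference -1.03 ± 0.25, limma adjusted p = 0.0336). Sema4d was lower in BG +/- on 1420823_at, at 3.71 and 9.21 in BG +/-, against 24.1 and 45.5 in Ctx +/- (limma adjusted p = 0.0132). Sema6c was higher in BG +/- on 1437652_at, at 43.9 and 31.7 in BG +/-, against 6.27 and 3.65 in Ctx +/- (limma adjusted p = 0.0356), while its other probe sets tested had log2 differences below 0. The groups do not overlap in these 3 cases, and all 3 probe sets are dimmer than the one that represents the gene. On Sema6a, 1425903_at passed in +/- at a log2 difference of 0.63 ± 0.17 (limma adjusted p = 0.0416).

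The antisense transcript Plxna4os1, which the rule for members does not take in, had signals of 3.21 and 1.45 in BG -/-, against 8.71 and 2.11 in BG +/-, and 4.86 and 17.0 in Ctx -/-, against 3.43 and 3.83 in Ctx +/-. It was too dim to be tested. Of the 78 probe sets of the members, 14 fell below the limit for testing.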
